A study of Homo sapiens with 12 samples.

Results

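The genes examined were 9 genes of the tight junction in HK-2 cells, namely CLDN1, CLDN2, CLDN4, CLDN7, CLDN11, CLDN12, OCLN, TJP1 and F11R. They were matched by gene name, and all 9 were found among the 58735 genes of the count table. HK-2 cells are an immortalized line derived from the proximal tubule of a human kidney. Poly(A) RNA was sequenced from 12 samples in 4 groups of 3, and the question was which genes changed after nephrotoxic drugs. The control group received water (H2O in the labels). The other groups were exposed for 48 h to iohexol, an iodinated contrast medium (75 mg I/mL), to cisplatin, a platinum drug (5 μM), or to vancomycin, a glycopeptide antibiotic (4 mM). All groups were this 1 cell line grown in serum, 1 dose and 1 time were used for each drug, and the labels do not state whether replicates came from separate cultures. P-values therefore measure the spread between these samples, which may be technical.

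Tight junctions close the gap between neighbouring epithelial cells. Claudins are the membrane proteins that decide which ions and how much water pass there, some of them sealing the gap and others forming pores, while occludin and the junctional adhesion molecules span the membrane beside them. The scaffold protein encoded by TJP1 ties these membrane proteins to actin. The proximal tubule is a leaky epithelium in which CLDN2 forms a pore for cations and water, whereas CLDN4 and CLDN7 are better known from the distal nephron and collecting duct.

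The marker genes of an epithelium were present, with KRT8 at 494 ± 35.6 CPM, KRT18 at 174 ± 8.84 CPM and EPCAM at 101 ± 6.06 CPM in the control group (SD, n = 3). CPM are counts scaled by the total count and a TMM factor of the sample. The adherens junction cadherin CDH1 was near 0, at 0.213 ± 0.250 CPM. Of the genes listed as proximal tubule markers, GGT1 (190 ± 28.2 CPM) and PAX8 (372 ± 42.2 CPM) were present. The sums of this list given below consist mostly of GGT1 and PAX8 and do not describe the other listed genes. LRP2 and SLC22A6 had 0 counts in the control samples, where SLC22A8, HNF4A, AQP1 and SLC34A1 lay at 0.0219, 0.0418, 0.271 and 0.314 CPM. The summed markers of endothelium and of leukocytes did not exceed 4.21 and 3.69 CPM in any sample. Total counts were between 14057282 and 18177109. By total count alone, without the TMM factor, 3 counts, taken as the limit of detection, stood for 0.165 to 0.213 CPM (counting error only). With that factor, 3 counts were 0.218 CPM in control replicate 1 and 0.185 CPM in vancomycin replicate 3. Iohexol replicate 3 stood apart. Against iohexol replicates 1 and 2 its chi-square over genes, divided by the degrees of freedom, was 15.5 and 14.6, while these 2 gave 3.56. Control replicate 1 (7.30 and 9.75 against the others, 3.07 between these) and vancomycin replicate 2 (11.9 and 8.77, against 5.78) did so less. Results that changed without these samples are given with both values.

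The members lay on 7 chromosomes of the genome build GRCh38, and the values are counts over all annotated exons of each gene. CLDN1 (chr3:190305701-190322475, minus strand) and CLDN11 (chr3:170418865-170454733, plus strand) shared a chromosome, as did CLDN4 (chr7:73799542-73832693, plus) and CLDN12 (chr7:90383721-90513402, plus). The others were CLDN2 (chrX:106900164-106930861, plus), CLDN7 (chr17:7259903-7263983, minus), OCLN (chr5:69492292-69558104, plus), TJP1 (chr15:29699367-29968865, minus) and F11R (chr1:160995211-161021348, minus). Reads of several members could not be assigned to 1 gene with certainty. Of the exon bases of F11R, 36.6% were also exon of the overlapping gene AL591806.3 on the same strand, and 18.3% of those of CLDN11 were exon of AC026316.5. Over the 12 samples these overlapping genes held 36 and 6 counts, against 11451 for F11R and 21649 for CLDN11. Of the 31-base sequences of F11R, 57.5% occurred in other genes, the largest share of any member, chiefly in AL591806.3. For OCLN the share was 16.9%, chiefly the pseudogene OCLNP1, and for CLDN11, CLDN12 and CLDN7 it was 16.0%, 15.9% and 13.8%. The remaining members shared 3.52% (CLDN2), 2.83% (CLDN4), 0.131% (TJP1) and 0% (CLDN1) of these sequences.

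The 250 bases upstream of the annotated start are shown for CLDN1, the most abundant member, and for CLDN2, CLDN4 and CLDN11, the members whose group means differed most over the 4 groups (RefSeq, GRCh38.p14, 5′ to 3′ on the strand of the gene). For CLDN2 and CLDN11 the first of 2 annotated starts was taken. Capitals mark GGGCGG, the GC box bound by SP factors, and TGACTCA, the AP-1 element, on either strand, so that CCGCCC is the GC box on the other strand.
CLDN1 (chr3:190322447-190322696, minus strand): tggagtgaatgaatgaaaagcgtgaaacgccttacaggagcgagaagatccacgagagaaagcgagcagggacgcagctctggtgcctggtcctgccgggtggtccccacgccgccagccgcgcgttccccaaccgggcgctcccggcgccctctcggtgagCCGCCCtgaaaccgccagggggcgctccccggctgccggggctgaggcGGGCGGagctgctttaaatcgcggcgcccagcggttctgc
CLDN2 (chrX:106899914-106900163, plus strand): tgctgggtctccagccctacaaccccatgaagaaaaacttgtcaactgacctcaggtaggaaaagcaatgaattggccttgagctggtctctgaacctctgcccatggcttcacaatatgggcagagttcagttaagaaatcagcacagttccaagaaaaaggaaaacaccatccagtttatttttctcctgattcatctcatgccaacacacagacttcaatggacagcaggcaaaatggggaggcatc
CLDN4 (chr7:73830746-73830995, plus strand): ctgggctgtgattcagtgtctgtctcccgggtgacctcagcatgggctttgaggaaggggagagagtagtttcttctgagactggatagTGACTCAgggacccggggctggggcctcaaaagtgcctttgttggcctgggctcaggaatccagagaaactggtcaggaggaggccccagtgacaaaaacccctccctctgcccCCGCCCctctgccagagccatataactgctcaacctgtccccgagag
CLDN11 (chr3:170418618-170418867, plus strand): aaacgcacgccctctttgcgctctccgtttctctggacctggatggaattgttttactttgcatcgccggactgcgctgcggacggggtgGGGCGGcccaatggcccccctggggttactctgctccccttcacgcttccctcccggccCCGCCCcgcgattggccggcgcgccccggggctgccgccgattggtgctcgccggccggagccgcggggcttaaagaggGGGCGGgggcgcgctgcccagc
The windows of CLDN1 and CLDN11 were rich in G and C, at 68.8% and 71.2%, against a median of 58.0% over 35116 such windows of 27305 genes. That of CLDN2 held 46.0% and that of CLDN4 58.8%. Of all windows 42.6% held a GC box, as did 9 of the 15 windows of the 8 members that had any, and no window of CLDN2 or CLDN12 did. TGACTCA was present in 4.20% of all windows and in 1 of the 15, that of CLDN4, 161 bases before the start. The letters CACCTG, an E-box recognised by SNAI and ZEB factors, stood in 17.5% of all windows and in 4 of the 15, belonging to CLDN7, OCLN and TJP1. None of the members' windows held TATAAA (10.7% of all windows), the GRHL element AACCGGT (0.627%) or the TEAD element GGAATG (11.9%). These matches describe letters and not binding.

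Per length of merged exon, CLDN1 exceeded every other member in the control group. Its mean RPKM, the CPM per kilobase of merged exon, was 384 ± 25.4 (SD, n = 3), followed by CLDN11 at 51.0 ± 2.76. TJP1 (17.1 ± 1.31), F11R (14.02 ± 0.269), CLDN12 (13.95 ± 1.27), CLDN4 (11.4 ± 1.795) and CLDN2 (8.39 ± 0.241) formed a middle range. OCLN lay at 0.452 ± 0.0324 and CLDN7 at 0.131 ± 0.0636 RPKM. F11R and CLDN12 differed by less than the spread between replicates, and CLDN7 was at or near the limit of detection with 2, 7 and 6 counts. The merged exon length counts all annotated exons, also any not used in these cells. Its effect on this ranking and on the claudin shares below was not tested.

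**Figure D1:**
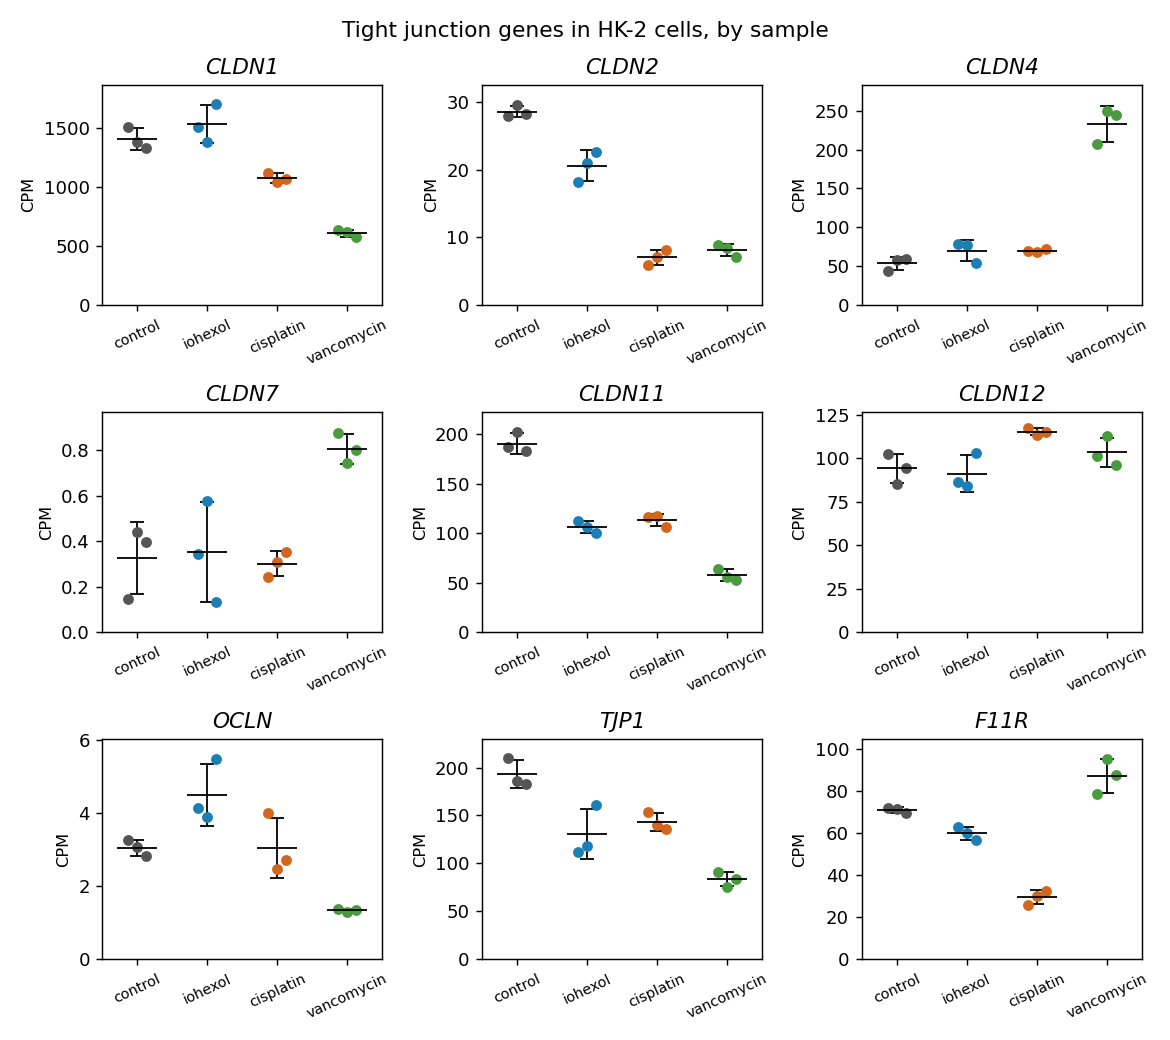
CPM of the 9 tight junction genes in each sample, 1 panel per gene with its own axis starting at 0. Points are samples, and bars the group mean and SD of 3 samples. CLDN4 was highest in the vancomycin group, where CLDN1, CLDN11, OCLN and TJP1 were lowest, and F11R was lowest in the cisplatin group.

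Compared with the control group, CLDN11, TJP1 and CLDN2 fell with iohexol by less than 1 on the log2 scale, and no member was a DEG. Of the 8 members tested, 0 were higher and 3 lower at an adjusted p under 0.05 in edgeR's quasi-likelihood test, while 11.2% of all 15657 genes tested were higher and 9.77% lower. DEGs also needed a log2 fold change above 1 or below -1, and 4.02% of all genes were up-regulated and 1.25% down-regulated DEGs. All 3 drugs were compared with the same 3 control samples. The members and lists were chosen with earlier results of these data known. Counts set beside the shares of all genes, here and below, therefore cannot test for an excess.

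CLDN11, a claudin known from myelin and from the Sertoli cells of the testis, had 187, 202 and 183 CPM in the control samples and 112, 106 and 99.7 CPM with iohexol. The groups did not overlap, and the level fell by 0.83 on the log2 scale (SE 0.0885, adjusted p = 5.34e-05). TJP1, which encodes the scaffold ZO-1, had 210, 186 and 183 CPM in the control samples and 112, 118 and 161 CPM with iohexol. It fell by 0.55 (SE 0.127, adjusted p = 0.0100), and the highest iohexol value was that of replicate 3. Without iohexol replicate 3 the log2 fold change was -0.72 (adjusted p = 3.35e-06), and without iohexol replicate 2 it no longer passed (adjusted p = 0.0509). CLDN2, the cation and water pore, had 28.0, 29.6 and 28.3 CPM in the control samples and 18.2, 21.0 and 22.7 CPM with iohexol. The change of -0.45 (SE 0.118, adjusted p = 0.0182) was lost without control replicate 2, iohexol replicate 1 or iohexol replicate 2 (adjusted p = 0.0805, 0.0742 and 0.0542), and with replicate numbers as a block (adjusted p = 0.0608).

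The other 5 members tested did not pass with iohexol. CLDN1, a sealing claudin, had 1408 ± 93.0 CPM in the control group and 1533 ± 161 CPM with iohexol (log2 fold change 0.14, 95% interval -0.06 to 0.34, adjusted p = 0.304). CLDN4 had 43.8, 57.9 and 58.8 CPM in the control samples and 78.6, 77.3 and 53.9 CPM with iohexol, so that the groups overlapped through iohexol replicate 3 (0.41, adjusted p = 0.0854). Without that replicate CLDN4 passed (0.56, adjusted p = 0.000515). OCLN, which encodes occludin, had 45, 49 and 43 counts in the control samples and 60, 61 and 82 counts with iohexol, and these groups did not overlap as CPM either (0.58, adjusted p = 0.0774). F11R, which encodes the adhesion molecule JAM-A, had 71.0 ± 1.36 and 59.9 ± 3.15 CPM (-0.23, adjusted p = 0.101). CLDN12, an atypical claudin tied to calcium transport, had 94.0 ± 8.58 and 91.0 ± 10.5 CPM (-0.03, 95% interval -0.26 to 0.21). Counted over all 9 members, the iohexol samples lay below all control samples for 4, above them for 1 and overlapped them for 4, where 37.9% of the genes tested did not overlap. The summed proximal tubule markers, mostly PAX8, were 650 to 861 CPM with iohexol, against 491 to 621 CPM in the control group. Of 6 tested, 4 were higher and 0 lower (all genes, 11.2% and 9.77%). The summed epithelial markers were 707 to 863 against 872 to 978 CPM, with 0 of 5 tested higher and 2 lower. Of the proximal tubule markers, PAX8 rose from 372 to 617 CPM (0.75, adjusted p = 0.000676), whereas GGT1 did not pass (190 and 147 CPM, adjusted p = 0.136). The other higher genes, CUBN, ANPEP and PAX2, lay at only 1.98, 4.81 and 4.38 CPM with iohexol. The part of these markers in these results was not tested.

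With cisplatin the pore claudin CLDN2 fell to 24.7% and F11R to 41.6% of their control means, and these were the DEGs among the members. Of the 8 members tested, 2 were higher and 5 lower, while 29.2% of all 15876 genes tested were higher and 30.6% lower. The 2 DEGs were down-regulated, beside 8.72% of all genes (7.62% were up-regulated DEGs). Counted over all 9 members, the cisplatin samples lay below all control samples for 5, above them for 2 and overlapped them for 2, where 65.1% of the genes tested did not overlap. In bulk RNA, fewer cells with a transcript and less of it per cell cannot be told apart.

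CLDN2 had 5.88, 7.14 and 8.15 CPM with cisplatin, against 28.0 to 29.6 CPM in the control samples. The fall was 4.05-fold (log2 fold change -2.02, SE 0.123, adjusted p = 2.36e-10), from 386 to 471 counts in the control samples to 97 to 138 counts with cisplatin. F11R had 72.1, 71.5 and 69.5 CPM in the control samples and 26.0, 30.3 and 32.3 CPM with cisplatin. Every cisplatin sample was below every control sample, and the fall was 2.40-fold (log2 fold change -1.26, SE 0.0848, adjusted p = 8.63e-10). Neither gene lost this call under any of the 14 alternatives.

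CLDN11, TJP1 and CLDN1 fell less with cisplatin. CLDN11 had 116, 117 and 106 CPM and fell by 0.75 on the log2 scale (SE 0.0655, adjusted p = 2.72e-08). TJP1 had 153, 140 and 136 CPM and fell by 0.43 (SE 0.0705, adjusted p = 4.66e-05). CLDN1 had 1119, 1041 and 1071 CPM, against 1512, 1378 and 1334 CPM in the control samples, and fell by 0.39 (SE 0.0568, adjusted p = 1.48e-05). The samples of the cisplatin and the control group did not overlap for any of these genes. Scaled by library size only, which shifts the median of all genes by 0.22, the changes of TJP1 and CLDN1 were -0.21 and -0.17 and still passed (adjusted p = 0.0120 and 0.0112).

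CLDN4 and CLDN12 were the members that rose with cisplatin. CLDN4 had 69.3, 68.2 and 71.4 CPM, above the 3 control values (log2 fold change 0.38, SE 0.0919, adjusted p = 0.00191). CLDN12 had 117, 113 and 115 CPM, against 103, 85.4 and 94.2 CPM in the control samples (0.29, SE 0.0725, adjusted p = 0.00213). By library size only the changes of CLDN4 and CLDN12 were 0.59 and 0.51. OCLN had 66, 40 and 46 counts with cisplatin, and its log2 fold change of 0.00 had a 95% interval of -0.50 to 0.50. The summed epithelial markers were 1370 to 1425 CPM with cisplatin against 872 to 978 CPM in the control group, and the summed proximal tubule markers 296 to 316 against 491 to 621 CPM. Of 5 proximal tubule markers tested, 0 were higher and 3 lower (all genes, 29.2% and 30.6%). PAX8 fell from 372 to 131 CPM (-1.50, adjusted p = 1.02e-11), whereas GGT1 did not pass (190 and 169 CPM, adjusted p = 0.104). Of 5 epithelial markers tested 4 rose, KRT8 and KRT18 among them, while EPCAM fell from 101 to 35.4 CPM (-1.51, adjusted p = 1.69e-11). Their part in these results was not tested.

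With vancomycin CLDN4 was up-regulated to 436% of its control mean, and CLDN1, CLDN2, CLDN11, OCLN and TJP1 were down-regulated to between 28.3% and 43.8% of theirs. Of the 9 members tested, 2 were higher and 5 lower, while 29.0% of all 15819 genes tested were higher and 28.8% lower. The DEGs were 1 up-regulated and 5 down-regulated member, beside 10.8% and 7.65% of all genes. CLDN7 entered this test only through its counts in the vancomycin group, so that this count covers another set of members than those of the other drugs. The vancomycin samples lay below all control samples for 5 members, above them for 3 and overlapped them for 1, where 63.2% of the genes tested did not overlap. The median log2 fold change of the members tested was -1.23, beside -0.01 over all genes tested. For iohexol and cisplatin it was -0.13 and -0.41, beside 0.01 over all genes in both comparisons. As the members were chosen with earlier results known, these medians and counts are descriptions only.

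CLDN4, a claudin that seals against cations, had 207, 249 and 244 CPM with vancomycin, against 43.8, 57.9 and 58.8 CPM in the control samples. The rise was 4.23-fold (log2 fold change 2.08, SE 0.108, adjusted p = 8.32e-14), and no sample of another group exceeded 78.6 CPM. CLDN7, another claudin of the collecting duct, had 14, 11 and 13 counts with vancomycin and 2, 7 and 6 in the control samples. The groups did not overlap, but the adjusted p was 0.0502 (log2 fold change 1.22, 95% interval 0.14 to 2.30). With limma-voom or RLE factors it was 0.0414 and 0.0496, and without control replicate 1 it was 0.200.

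The claudins that fell included the most abundant one. CLDN1 had 632, 614 and 576 CPM with vancomycin, a 2.39-fold fall from the control group (log2 fold change -1.25, SE 0.0856, adjusted p = 1.11e-11). CLDN11 had 63.9, 55.5 and 52.8 CPM, a 3.41-fold fall (-1.77, SE 0.0964, adjusted p = 1.86e-13). CLDN2 had 8.82, 8.37 and 7.08 CPM, a 3.64-fold fall (-1.86, SE 0.131, adjusted p = 1.89e-11). For all 3 genes every vancomycin sample lay below every control sample. CLDN12 had 101, 113 and 96.0 CPM and overlapped the control group (0.09, 95% interval -0.10 to 0.29).

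Occludin and the scaffold fell as well. OCLN had 22, 19 and 22 counts with vancomycin, and its CPM fell from 3.06 ± 0.219 to 1.34 ± 0.0490 (log2 fold change -1.23, SE 0.293, adjusted p = 0.000955). TJP1 had 91.2, 75.8 and 84.1 CPM, a 2.37-fold fall (-1.25, SE 0.0961, adjusted p = 1.02e-10). F11R had 78.9, 95.2 and 87.6 CPM, each above the control samples of 69.5 to 72.1 CPM (0.25, SE 0.0935, adjusted p = 0.0234). This call was lost with library size only (0.18, adjusted p = 0.105), without a filter on low counts (adjusted p = 0.0651), and without control replicates 2 or 3 or vancomycin replicates 2 or 3 (adjusted p = 0.0556 to 0.0945). Without vancomycin replicate 2 the other 8 members stayed on their side of the threshold, and without control replicate 1 all 9 did.

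The 5 listed fibroblast markers summed to 241 to 277 CPM with vancomycin and to 115 to 129 CPM in the control group, with LUM at 79.8 CPM in the control group and 182 CPM with vancomycin, COL1A1 at 30.6 and 41.8 CPM and DCN at 12.3 and 30.5 CPM. PDGFRB lay at 0.607 and 1.36 CPM, and COL1A2 had 0 counts in both groups. The summed epithelial markers were 1290 to 1417 CPM with vancomycin and 872 to 978 CPM in the control group, with 3 of 5 tested higher, while KRT7 (-0.83, adjusted p = 6.85e-08) and EPCAM (-0.44, adjusted p = 0.000678) fell. The summed proximal tubule markers were 726 to 816 CPM, against 491 to 621 CPM. Of 7 tested, 2 were higher and 1 lower (all genes, 29.0% and 28.8%). GGT1 rose from 190 to 363 CPM, and AQP1, the other higher marker, was tested with vancomycin only. PAX8 did not pass (372 and 407 CPM), and PAX2 fell from 1.48 to 0.0205 CPM (log2 fold change -5.70, adjusted p = 1.06e-06). The summed markers of the distal nephron and collecting duct were 15.02 to 19.2 CPM, against 8.42 to 10.8 CPM. With iohexol this sum was 14.9 to 19.1 CPM. Most of the vancomycin sum was AVPR2, at 11.3 CPM against 7.67 CPM in the control group. ATP6V0D2, tested with vancomycin only, had 0.939 CPM in the control group and 5.51 CPM with vancomycin. SLC12A3 did not pass (0.967 and 0.607 CPM), and UMOD, AQP2 and SCNN1G had 0 counts with vancomycin. The part of all these markers in the changes of the junction genes was not tested.

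**Figure D2:**
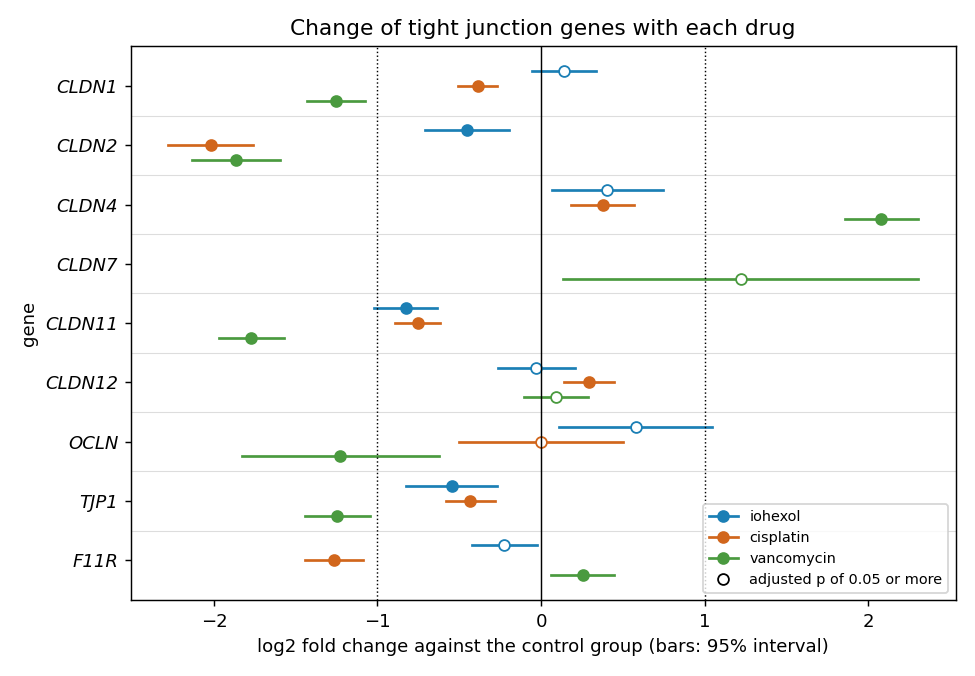
Log2 fold change of each tight junction gene against the control group for the 3 drugs, with 95% intervals from edgeR's quasi-likelihood fit of 3 against 3 samples. Open circles have an adjusted p of 0.05 or more, dotted lines mark -1 and 1, and CLDN7 is drawn for vancomycin only. CLDN4 lay at 2.08 with vancomycin and F11R at -1.26 with cisplatin, on the other side of 0 from its 0.25 with vancomycin.

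Differences between drugs were tested in a fit of all 12 samples. Between cisplatin and iohexol, 1 of 8 members was higher and 4 lower with cisplatin, beside 26.0% and 27.9% of all 17073 genes, and 2 were DEGs (17.5% of all genes). Between vancomycin and iohexol, 2 were higher and 5 lower with vancomycin, beside 29.0% and 27.6%, and 4 were DEGs (20.1%). Between vancomycin and cisplatin, 2 were higher and 4 lower with vancomycin, beside 34.7% and 30.0%, and 3 were DEGs (28.5%).

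For CLDN4, cisplatin and iohexol were not resolved (log2 fold change -0.01, 95% interval -0.27 to 0.26), and vancomycin exceeded both by 1.74 (adjusted p = 3.06e-10 against cisplatin and 5.51e-10 against iohexol). Its order was vancomycin, iohexol, cisplatin and control. In the separate fits with the control group, the latter was resolved from cisplatin but not from iohexol (adjusted p = 0.0854), whereas in the fit of all 12 samples iohexol passed too (0.39, adjusted p = 0.0325). F11R differed by 1.56 between vancomycin and cisplatin (SE 0.0965, adjusted p = 2.57e-11), and iohexol lay between them (cisplatin against iohexol -1.02, 95% interval -1.22 to -0.82). For CLDN2 the order was control, iohexol, then vancomycin and cisplatin, which did not differ beyond the test (0.20, 95% interval -0.11 to 0.50). For CLDN11 and TJP1 the order was control, then cisplatin and iohexol, then vancomycin. Cisplatin and iohexol were not resolved for CLDN11 (0.09, 95% interval -0.08 to 0.27) or for TJP1 (0.13, 95% interval -0.10 to 0.37), although TJP1 passed without iohexol replicate 3 (0.31, adjusted p = 0.00594).

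CLDN1 was lowest with vancomycin (-0.83 on the log2 scale against cisplatin, adjusted p = 1.94e-08), and iohexol and the control group were not resolved. OCLN was lowest with vancomycin as well (-1.19 against cisplatin, adjusted p = 0.000498, and -1.75 against iohexol, adjusted p = 7.40e-06). The lower OCLN with cisplatin than with iohexol (-0.56, adjusted p = 0.0444) was lost under 10 of the 12 alternatives (adjusted p = 0.0502 to 0.202). CLDN12 was higher with cisplatin than with iohexol (0.34, adjusted p = 0.00431), and no neighbours in its order, cisplatin, vancomycin, control and iohexol, differed beyond the test. Vancomycin against iohexol (0.18, adjusted p = 0.107) passed for CLDN12 without iohexol replicate 3 (0.28, adjusted p = 0.0112).

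Among the 6 claudin members, CLDN1 held a smaller and CLDN4 a larger share in every vancomycin sample than in every control sample. In percent of the summed RPKM, CLDN1 held 83.3%, 81.0% and 81.3% in the control samples and 68.6%, 65.8% and 65.6% with vancomycin. CLDN4 held 1.88%, 2.65% and 2.79% in the control samples and 17.5%, 20.8% and 21.6% with vancomycin. Neither pair of groups overlapped, and each gave an exact permutation p of 0.1 (two-sided), the smallest that 3 samples against 3 allow, so that this design cannot reach 0.05. The shares of a sample add to 100%, so that they do not vary independently.

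Of the other shares, CLDN11 held 10.9% ± 0.790 in the control group, 5.93% ± 0.737 with iohexol, 8.46% ± 0.498 with cisplatin and 6.18% ± 0.549 with vancomycin. CLDN2 held 1.79% ± 0.117, 1.26% ± 0.139, 0.579% ± 0.105 and 0.952% ± 0.0820 in the same order. CLDN12 held 2.97% ± 0.212, 2.80% ± 0.120, 4.77% ± 0.0614 and 6.15% ± 0.351. CLDN7 did not exceed 0.130% in the mean of any group. The share of CLDN1 was 86.8% ± 1.53 with iohexol and 82.0% ± 0.538 with cisplatin, against 81.9% ± 1.24 in the control group (exact permutation p = 0.1 and 0.8). With all 24 claudin genes of the table as the denominator, the iohexol difference turned from 4.97 to -1.19 percentage points.

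The summed RPKM of the 6 claudins was 469 ± 24.2 in the control group, 482 ± 42.2 with iohexol, 358 ± 11.0 with cisplatin and 249 ± 7.89 with vancomycin (SD, n = 3). Vancomycin thus stood at 53.0% of the control mean and cisplatin at 76.4% (exact permutation p = 0.1 for both, two-sided). Iohexol stood at 103% (exact permutation p = 0.7).

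**Figure D3:**
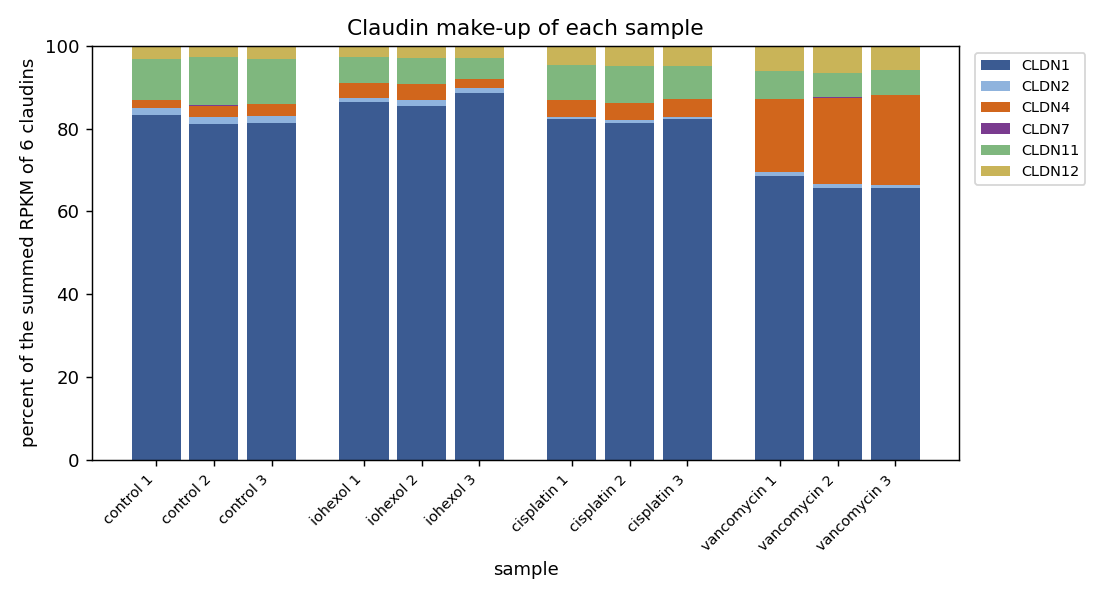
Claudin make-up of each of the 12 samples, as the percent of the summed RPKM of CLDN1, CLDN2, CLDN4, CLDN7, CLDN11 and CLDN12. Each bar is 1 sample and adds to 100%. The CLDN4 segment lay between 17.5% and 21.6% in the vancomycin samples and did not exceed 4.27% in the others.

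Among the 20 other claudin and claudin-domain genes listed, CLDN16, which carries magnesium and calcium in the thick ascending limb, was next after CLDN1 by RPKM in the control group. It had 241, 238 and 224 CPM in the control samples and 378, 351 and 435 CPM with iohexol (log2 fold change 0.75, adjusted p = 0.000156). With cisplatin it had 122, 112 and 111 CPM (-1.03, adjusted p = 2.88e-10) and with vancomycin 37.0, 41.1 and 36.5 CPM (-2.66, adjusted p = 8.26e-17). The group means of CLDN16 thus lay in the order of those of CLDN1, highest with iohexol and lowest with vancomycin. For CLDN1, however, iohexol and the control group were not resolved. CLDN3, a sealing claudin, rose with iohexol from 1.70 ± 0.166 to 4.22 ± 0.670 CPM (1.33, adjusted p = 0.00216). CLDN6, an embryonic claudin, had 0 to 2 counts in the control samples and 26 to 33 counts with cisplatin. CLDN10, the cation and anion channel of the nephron, had 0 to 5 counts in any sample. CLDN6 was tested with cisplatin only, where it was high, and so had to differ. Of these 20 genes, 2 of 8 tested were higher and 0 lower with iohexol (all genes, 11.2% and 9.77%), 3 of 9 higher and 1 lower with cisplatin, CLDN6 included (29.2% and 30.6%), and 2 of 7 higher and 1 lower with vancomycin (29.0% and 28.8%).

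Of 11 other membrane proteins of the junction, 9 were tested in each comparison. With iohexol 3 were higher and 1 lower (all genes, 11.2% and 9.77%), with cisplatin 1 higher and 3 lower (29.2% and 30.6%), and with vancomycin 2 higher and 3 lower (29.0% and 28.8%). MARVELD3, a relative of occludin, had 12 to 27 counts in the control samples and 50 to 95 with iohexol (log2 fold change 2.17, adjusted p = 0.00105). MARVELD2, the tricellulin of junctions where 3 cells meet, rose with vancomycin from 0.760 ± 0.148 to 2.47 ± 0.503 CPM (1.66, adjusted p = 0.000370). JAM2, a relative of F11R, rose with vancomycin from 0.961 ± 0.127 to 5.61 ± 0.497 CPM (2.50, adjusted p = 3.23e-08).

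Of 24 scaffold and polarity genes, 12 fell and 3 rose with cisplatin, among them 6 down-regulated and 1 up-regulated DEGs. Of all genes, 30.6% fell and 29.2% rose with cisplatin, and 8.72% and 7.62% were down- and up-regulated DEGs. PARD3, PARD3B and PATJ, which are parts of the polarity complexes next to the junction, had log2 fold changes of -2.33, -4.19 and -2.54 with cisplatin (adjusted p = 7.86e-14, 7.63e-14 and 8.34e-12). The genes that rose, named after their values were seen, were PALS1 (0.39, adjusted p = 0.000172), PARD6G (0.36, adjusted p = 0.0421) and TJAP1 (1.00, adjusted p = 4.77e-07). PRKCI did not pass (0.04). PARD3 and PARD3B also fell with vancomycin (-0.76 and -1.19, adjusted p = 6.48e-08 and 1.04e-07), and PARD3 with iohexol (-0.36, adjusted p = 0.0116). PATJ did not pass with these drugs. The PARD3B level was 40.1 ± 2.06 CPM in the control group and 2.20 ± 0.112 CPM with cisplatin. CGNL1, which encodes paracingulin, fell by 1.65 on the log2 scale with cisplatin (adjusted p = 1.28e-11) and rose by 0.83 with iohexol (adjusted p = 8.50e-05). TJP3, a relative of TJP1, had 56 to 90 counts in the control samples and 143 to 236 with iohexol (1.57, adjusted p = 0.000390). With iohexol 6 scaffold and polarity genes were higher and 3 lower (all genes, 11.2% and 9.77%), and with vancomycin 4 were higher and 10 lower (29.0% and 28.8%). AMOTL2, an angiomotin relative, was down-regulated by vancomycin (-1.52, adjusted p = 3.85e-12), and CGN, which encodes cingulin, changed by -0.96 (adjusted p = 0.00477). CGN rose with iohexol (0.85, adjusted p = 0.0161).

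Genes of the actomyosin belt that pulls on the junction were among the DEGs of cisplatin. MYH9, a heavy chain of non-muscle myosin, had 3141 ± 325 CPM in the control group and 1235 ± 9.91 CPM with cisplatin (log2 fold change -1.35, adjusted p = 5.09e-12). MYLK, the myosin light chain kinase, fell from 280 ± 7.80 to 109 ± 5.59 CPM (-1.36, adjusted p = 4.95e-12). The light chain genes MYL9 and MYL12B did not pass with cisplatin (0.0425 and -0.00414). MYH9 also fell with iohexol (-0.50, adjusted p = 0.00314) and vancomycin (-0.54, adjusted p = 2.44e-05), and MYLK with vancomycin (-0.88, adjusted p = 8.02e-08). Of 15 signalling and actomyosin genes, 5 were higher and 7 lower with cisplatin (all genes, 29.2% and 30.6%), 0 higher and 2 lower with iohexol (11.2% and 9.77%), and 2 higher and 5 lower with vancomycin (29.0% and 28.8%).

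Of the transcription factors known to act on junction genes, 10 or 11 of 15 were tested. SNAI2, a repressor of epithelial genes, had 6.02, 6.46 and 6.78 CPM in the control samples and 45.7, 46.7 and 42.6 CPM with vancomycin (log2 fold change 2.76, adjusted p = 8.01e-15). GRHL1, a grainyhead factor, fell with vancomycin from 6.59 ± 1.59 to 2.13 ± 0.880 CPM (-1.66, adjusted p = 1.14e-05). KLF4, a factor of epithelial differentiation, rose with iohexol, cisplatin and vancomycin (0.98, 1.92 and 1.73, adjusted p = 0.000600, 2.76e-10 and 5.14e-10). With vancomycin 6 factors were higher and 3 lower (all genes, 29.0% and 28.8%), with cisplatin 5 higher and 4 lower (29.2% and 30.6%), and with iohexol 2 higher and 1 lower (11.2% and 9.77%). The cisplatin count includes GRHL3, named after its values were seen, which was tested with cisplatin only and passed the filter through its counts there. Whether any of them acts on the members was not tested.

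Of the adherens junction genes, 2 of 12 tested were higher and 6 lower with iohexol (all genes, 11.2% and 9.77%), 2 of 11 higher and 7 lower with cisplatin (29.2% and 30.6%), and 2 of 12 higher and 6 lower with vancomycin (29.0% and 28.8%). The cadherin CDH6 fell from 520 ± 18.02 CPM in the control group to 170 ± 15.2 with iohexol and 64.1 ± 1.63 with cisplatin (log2 fold changes -1.59 and -3.02, adjusted p = 3.50e-07 and 1.20e-15). With vancomycin CDH6 had 370 ± 29.9 CPM (-0.53, adjusted p = 1.50e-05). The kidney cadherin CDH16 rose with iohexol (2.36, adjusted p = 1.19e-06) and vancomycin (1.49, adjusted p = 7.41e-10), and fell with cisplatin (-0.47, adjusted p = 0.00700). In the desmosome, DSP and PKP2 were down-regulated by vancomycin (-1.26 and -1.37, adjusted p = 1.01e-10 and 8.34e-08), whereas PKP1 had 1 to 3 counts in the control samples and 31 to 43 with vancomycin. PKP1 was tested with vancomycin only, where it was high. Of the desmosome genes, 2 of 9 tested were higher and 4 lower with vancomycin, 1 of 8 higher and 3 lower with cisplatin, and 1 of 8 higher and 2 lower with iohexol. They stand beside the shares of all genes given for the adherens junction, and nothing particular to the desmosome is read from so few genes.

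**Figure D4:**
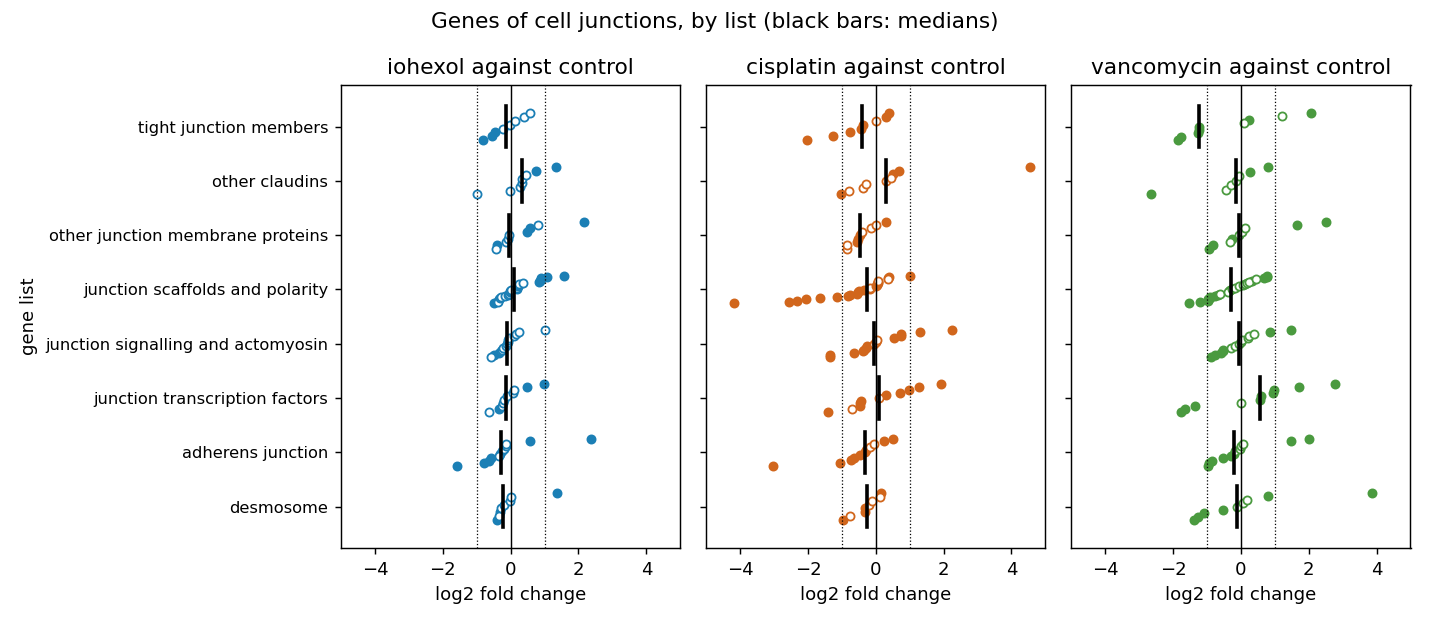
Log2 fold change against the control group for the tested genes of 8 lists of cell junction genes, 1 panel per drug. Each point is a gene, filled where the adjusted p was under 0.05, black bars are the medians of the lists and dotted lines mark -1 and 1. The median of the tight junction members lay at -0.13, -0.41 and -1.23 with iohexol, cisplatin and vancomycin.

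The genes whose log2 CPM over the 12 samples followed a member most closely were found for CLDN4, CLDN2 and CLDN11, among 11537 genes with a mean of at least 5 CPM. For CLDN4 they included TARBP2 and PIM3 (Pearson's r 0.993 and 0.993). For CLDN2 they were GALNT13, SPATS2L and CASK (0.983, 0.979 and 0.978), and for CLDN11 TNFAIP6, MORC4 and TNFRSF21 (0.993, 0.982 and 0.979). PIM3, a kinase, had means of 71.1 CPM in the control group and 169 CPM with vancomycin, and TNFAIP6, a hyaluronan-binding protein, 12.4 and 0.745 CPM. These values describe 12 samples in 4 separated groups, share the libraries with the member and carry no p.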

How the data were processed

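RNA of 12 HK-2 samples was measured by poly(A) RNA sequencing (NEBNext Ultra), in 4 groups of 3 taken from the treatment labels, with doses and time from the treatment protocol. The authors deposited raw read counts, not normalized, for 58735 genes. The submitters' processing notes list CASAVA 1.8, fastp, HISAT2 2.0.5, featureCounts 1.5.0-p3 and DESeq2 1.20.0, without their order or settings, and the strand setting of the counting is not given in the sources used here. If strand was not used, reads of a gene and of an overlapping antisense gene could not be told apart. Gene positions matched GENCODE 29 (GRCh38) for 58724 of 58735 genes.

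The counts of each drug group were fitted together with those of the control group in edgeR 4.0.16 under R 4.3.3 (TMM, glmQLFit and glmQLFTest, and filterByExpr with min.count 10 and min.total.count 15). Contrasts between drugs came from 1 fit to the 12 samples. Benjamini-Hochberg adjustment covered all genes tested. A gene passed at an adjusted p under 0.05, and a DEG also changed by more than 1 on the log2 scale. The SE is the size of the log2 fold change divided by the square root of F. CPM use the TMM factors of the fit of all samples, RPKM divide them by the merged exon length in the table, and shares were compared by exact two-sided permutation tests. Total counts of 14057282 to 18177109 set the precision. Intervals are at 95%, and 3 counts were taken as the floor. The members and gene lists were chosen with earlier results of these data known. From each further list, up to 5 genes that were DEGs in a comparison with the control group were named, by smallest p, with the partners TJP3, CGN, MARVELD2, CLDN3 and CLDN10, and some genes that this rule covers are not reported here. Marker genes are named as checks of the cell type.

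In simulated counts, a change of 1 on the log2 scale was called in 54 of 67 tested genes for iohexol, 55 of 63 for cisplatin and 46 of 70 for vancomycin, with 8, 10 and 8 calls among 15494, 15701 and 15666 unchanged genes. The alternatives were DESeq2 1.42.0, limma-voom (limma 3.58.1), RLE factors, library size only, no filter or at least 10 counts in every sample, other samples in the fit, the replicate number as a block, and leaving out each sample. No replicates were duplicates within sampling noise (chi-square per degree of freedom 2.28 to 15.5), and each was counted as a sample, although such a spread can be technical. Python 3.11.15 and matplotlib 3.10.9 served for the figures.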

Additional observations from a re-analysis of the deposited data

Results flagged for a closer look

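F11R moved in opposite directions with cisplatin and vancomycin. Every cisplatin sample lay below and every vancomycin sample above the control samples, and the difference between the drugs was itself tested, at 1.56 on the log2 scale (edgeR, adjusted p = 2.57e-11). The fall with cisplatin stayed past the threshold under all 14 alternatives run, whereas the rise with vancomycin (0.25) was lost under 6 of 14. Of its exon bases, 36.6% are shared with AL591806.3, and 57.5% of its 31-base sequences occur in other genes, so that reads there could belong to either gene, and the effect of this was not tested.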

How the results depend on the processing

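Over 14 alternatives for each comparison with the control group and 12 for each between drugs, most calls on the members kept their direction and their side of the threshold. The replicate numbers did not pair the samples (mean correlation of deviations from the group means -0.02 over 18 pairs of samples with the same number, 0.01 over 36 others). With the replicate number as a block, 2, 7 and 7 members passed with iohexol, cisplatin and vancomycin and 4, 7 and 6 between cisplatin and iohexol, vancomycin and iohexol, and vancomycin and cisplatin. In the fits with the block, CLDN2 with iohexol (adjusted p = 0.0608) and OCLN between cisplatin and iohexol (0.0502) no longer passed, and OCLN with cisplatin turned to -0.0203. In leave-one-out fits, 1 to 4 members passed with iohexol in place of 3, the lowest without iohexol replicate 2. Left-out samples moved the DEGs between cisplatin and iohexol from 1 to 2 around 2, the lower value without cisplatin replicate 1 or iohexol replicate 1. The difference in the CLDN1 share with cisplatin (0.149 percentage points) ranged from -0.264 to 0.861 when samples were left out.

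With library size only, the median of all genes shifted by 0.22 with cisplatin, 0.07 with iohexol and -0.08 with vancomycin, and by 0.13, -0.21 and -0.33 between cisplatin and iohexol, vancomycin and iohexol, and vancomycin and cisplatin. The up-regulated share of all DEGs then moved from 46.6% to 65.0% with cisplatin and, in the 3 comparisons between drugs, from 35.0% to 45.9%, 52.7% to 35.9% and 57.0% to 35.2%. The same setting gave 1 DEG among the members in place of 2 between cisplatin and iohexol, and 6 in place of 3 between vancomycin and cisplatin, where a fit of these 2 drug groups alone gave 5. It also turned CLDN12 with iohexol to 0.0423, CLDN4 between cisplatin and iohexol to 0.12, CLDN12 between vancomycin and iohexol to -0.0267 and CLDN2 between vancomycin and cisplatin to -0.14, and CLDN12 between vancomycin and cisplatin (-0.50, adjusted p = 8.74e-05) and CLDN11 between cisplatin and iohexol (0.22, adjusted p = 0.0329) then passed. CLDN12 between vancomycin and cisplatin also passed in the fit of these groups alone (adjusted p = 0.00921). Other uncalled values that turned were OCLN with cisplatin (-0.0273 with limma-voom, -0.0208 without a filter, and -0.24 to 0.135 in leave-one-out fits), CLDN12 with iohexol (-0.12 to 0.0369 in such fits) and CLDN4 between cisplatin and iohexol (0.00833 with DESeq2, 0.00842 with RLE factors, and -0.17 to 0.0836 in leave-one-out fits). CLDN4 with iohexol passed without a filter (adjusted p = 0.0161) and in the fit of all 4 groups (0.0325), and OCLN with iohexol with library size only (0.0495).

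In the claudin make-up, the CLDN1 difference turned with iohexol from 4.97 to -1.19 percentage points when all claudins were summed, and with cisplatin from 0.149 to -1.39 when counts were not divided by gene length. That of CLDN7 with iohexol turned from 0.00215 to -3.71e-05 with all claudins and ranged from -0.00875 to 0.0123 in leave-one-out values, and that with cisplatin from -0.00279 to 0.0103. The causes were not tested. Depth limited CLDN7 and OCLN, which had 2 to 14 and 19 to 82 counts per sample.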
